A study of Mus musculus with 4 samples.

Results

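The 10 histone demethylase genes Kdm1a, Kdm1b, Kdm3a, Kdm3b, Jmjd1c, Kdm4a, Kdm4c, Kdm5b, Kdm6a and Kdm6b were examined in mouse 2-cell embryos that had been cultured with or without dimethyl sulfoxide (DMSO), a drug solvent and cryoprotectant. The genes were taken by name from a table of 30049 Ensembl genes, and all 10 were found there. Zygotes from crosses of BDF1 mice (wild type, F2 background, BDF1 being the first generation of C57BL/6 and DBA/2) were collected 18 h after females had been given human chorionic gonadotropin and kept for 24 h in KSOM, a culture medium for preimplantation embryos. The control group received no DMSO and the DMSO group received 2% DMSO, and both groups shared strain, medium and time. At the end of the culture 50 embryos of each group that had reached the 2-cell stage were lysed together, and the sources do not say how the 50 were divided between libraries. There were 2 control and 2 DMSO libraries, numbered as replicates 1 and 2 in each group, and nothing states that they came from separate cultures, so p-values measure the spread between these libraries, which may be technical.

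Values are TPM, a relative abundance of transcripts in which reads are divided by transcript length and scaled to the library total, so that levels can be set side by side between genes. The table added up to 768174 and 780527 TPM for control replicates 1 and 2, and 772487 and 799166 TPM for the DMSO replicates. The 20 most abundant genes of each library held 22.1% and 23.6% of this total without DMSO and 29.4% and 35.1% of it with DMSO, which leaves a smaller part of the total to all other genes. Pairs of values below are given in the order of replicates 1 and 2. TPM keeps no depth, and the depth of the libraries is unknown here. RNA was read in whole embryos, and fewer copies per cell cannot be told apart from a change in the cells that made up the pool.

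Histone demethylases remove methyl groups from lysines of histone tails, and they work against the methyltransferases that write these marks. The LSD1 pair, Kdm1a and Kdm1b, oxidises methyl-lysine with the cofactor FAD, and the remaining members carry a Jumonji C (JmjC) domain that uses iron, oxygen and 2-oxoglutarate. The mammalian zygote inherits both the marks and much of this enzyme RNA from the egg, and marks on H3K4, H3K9 and H3K27 are remodelled while the embryonic genome is switched on. Kdm1b is known for its role in the growing oocyte, where it is needed for DNA methylation at imprinted genes.

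All 10 genes were measured above 0 TPM in the 4 libraries and passed the filter, a mean of at least 1 TPM. In control embryos the most abundant was Kdm1a at 50.2 ± 7.60 TPM (SD, n = 2), followed by Kdm5b at 46.2 ± 7.25 TPM, Kdm1b at 22.4 ± 3.82 TPM and Kdm4c at 17.9 ± 0.869 TPM. Jmjd1c was at 13.3 ± 0.456 TPM, Kdm4a at 9.01 ± 1.82 TPM and Kdm3b at 8.66 ± 1.14 TPM. Kdm6b and Kdm6a had the same mean, 6.92 TPM (SD 1.50 and 1.38), and Kdm3a was lowest at 5.19 ± 1.23 TPM. In this order the control libraries of Kdm1a and Kdm5b, of Kdm4a and Kdm3b, and of each neighbouring pair from Kdm3b down to Kdm3a overlapped. The mean of Kdm1a was above that of 81.3% of the 12038 genes tested and the mean of Kdm3a above that of 40.4%. In DMSO-treated embryos Kdm1b came first at 48.5 ± 14.9 TPM, and Kdm5b (31.3 ± 2.18 TPM) and Kdm1a (25.1 ± 5.62 TPM) followed. By mean Kdm3a remained the lowest at 2.06 ± 0.275 TPM, but its DMSO libraries overlapped those of Kdm3b (1.81 and 2.83 TPM).

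**Figure D1:**
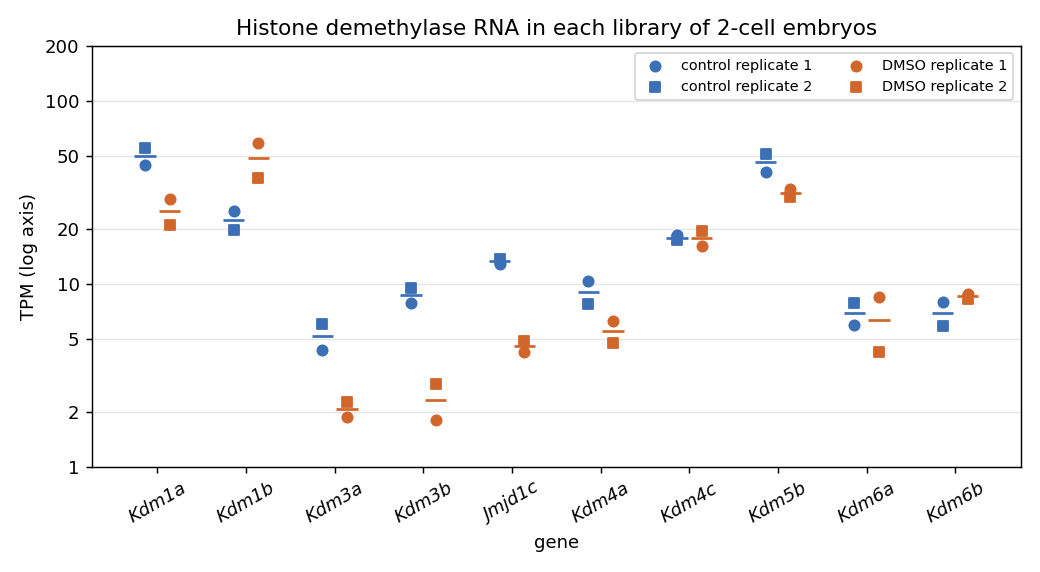
TPM of each histone demethylase gene in each library (log axis). Blue points are control libraries and orange points DMSO libraries, circles replicate 1 and squares replicate 2, and short lines the group means. The DMSO points of Kdm3a, Kdm3b and Jmjd1c lie between 1.81 and 4.87 TPM, below their control points, and those of Kdm1b at 59.0 and 38.0 TPM lie above them.

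Kdm3b and Jmjd1c changed past the threshold in DMSO-treated embryos, and both fell. They were tested with limma on log2(TPM + 1) with Benjamini-Hochberg adjustment over the 12038 genes, so that changes are differences on that scale, which understates the change of low genes. Thus 2 of 10 members were called lower at an adjusted p-value under 0.05, where 14.1% of all genes tested were, and 0 members were called higher, where 6.42% of all genes were (20.5% in either direction). At an unadjusted p-value under 0.05 there were 4 members lower and 1 higher, where 24.3% and 15.8% of all genes tested, or 40.2% together, were. The control and DMSO libraries did not overlap for 6 members that were lower and 2 that were higher, where 38.7% and 31.1% of all genes tested, or 69.8% together, had no overlap. Among 10 genes, neither 2 calls nor 8 without overlap sets the members apart from these shares. The median log2 change of the 10 members was -0.58, and that of all genes tested was -0.09. Of all calls 31.3% were higher, but 42.9% after median-ratio scaling, 49.0% after quantile normalization and 45.4% after a correction for transcript length and GC content. The median of the members was -0.48, -0.44 and -0.50 in these fits, beside -0.01, 0.01 and 0.02 over all genes. These medians are a description, as no test was run over the members, which were chosen with earlier results of these data known.

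**Figure D2:**
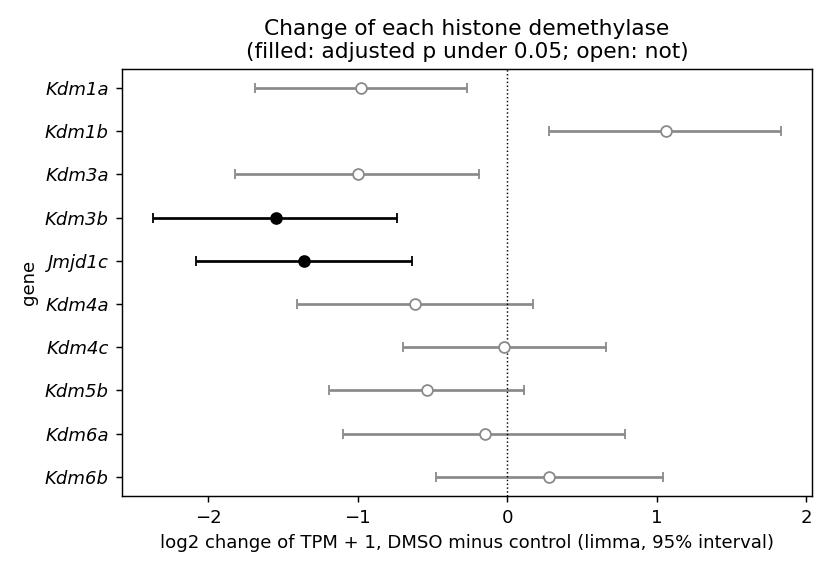
Difference of log2(TPM + 1) between DMSO and control embryos for each gene, with the 95% interval from limma. Filled points mark an adjusted p-value under 0.05, reached by Kdm3b (-1.55) and Jmjd1c (-1.36). The intervals of Kdm1a, Kdm1b and Kdm3a exclude 0 without passing the adjusted threshold, and those of the other genes include 0.

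The Kdm3 family includes enzymes that act on mono- and dimethylated H3K9, and all 3 of its members were lower in both DMSO libraries. Of the 3, 2 were called, where 38.7% of all genes tested were lower without overlap and 14.1% were called lower. With 3 genes chosen by name these counts are a description. Kdm3b (ENSMUSG00000038773, chromosome 18 of GRCm38 from 34777047 to 34838660, plus strand), an H3K9 demethylase, was at 7.85 and 9.46 TPM without DMSO and 1.81 and 2.83 TPM with it. Both DMSO libraries lay far below both control libraries. The difference on the log2 scale was -1.55, with a standard error of 0.34 (limma adjusted p = 0.0305). Shared sequence was read from the GENCODE M21 transcripts as words of 31 bases, a release other than the one to which the reads had been assigned. Of the words of Kdm3b 2.65% also occur in transcripts of other genes listed in the table. The share is 25.7% over all GENCODE genes, mostly through Gm26538, a noncoding gene on the opposite strand whose exons cover 24.6% of the exonic bases of Kdm3b and which was not analysed here. Reads from that stretch cannot be told apart without strand, and their part in the result was not tested.

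Jmjd1c (ENSMUSG00000037876, chromosome 10 from 67096125 to 67256326, plus strand), the largest relative in the family, known for its need in the long-term upkeep of male germ cells, was at 12.9 and 13.6 TPM without DMSO and 4.26 and 4.87 TPM with it. The replicates of each group lay close together and the groups did not overlap. The difference was -1.36, with a standard error of 0.30 (limma adjusted p = 0.0309), and 0.33% of its words are shared with genes of the table. Kdm3a (ENSMUSG00000053470, chromosome 6 from 71588972 to 71632990, minus strand), which removes H3K9 methylation in spermatids and at the sex-determining gene Sry, was at 4.32 and 6.06 TPM against 1.87 and 2.26 TPM. Its groups did not overlap either, and its log2 change of -1.00 (standard error 0.34) did not pass the threshold, with a limma adjusted p = 0.0784. None of its words are shared.

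Summed, the Kdm3 family was at 25.1 and 29.1 TPM without DMSO and 7.94 and 9.95 TPM with it. It made up 14.0% and 15.0% of the RNA of the 10 genes in control embryos and 4.71% and 7.35% in DMSO-treated embryos. A share within a library does not change with a scaling factor common to all its genes. The calls of Kdm3b and Jmjd1c held under both scalings and the length and GC correction, but were lost without a filter on low values (adjusted p = 0.108 and 0.103), where limma called 0 of 22257 genes and 5368 had an unadjusted p-value under 0.05. They were also lost without control replicate 1, control replicate 2 or DMSO replicate 1, where limma called 0 genes of the whole table and between 2602 and 3745 had an unadjusted p-value under 0.05, and Jmjd1c was lost without DMSO replicate 2 (adjusted p = 0.0599). Over all alternatives their log2 changes ran from -1.88 to -1.33 and from -1.52 to -1.27.

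The promoters of Jmjd1c and Kdm3a, genes that were both lower, are shown from 250 bases before to 50 bases after the start of transcription, as listed by RefSeq on GRCm38.p6. Jmjd1c has 2 listed starts and Kdm3a 3, and the first of these in the direction of transcription is shown for each, at chr10:67126838-67127137 on the plus strand and chr6:71632868-71633167 on the minus strand. The Jmjd1c window lies within the GENCODE gene model, which begins upstream of it. Capitals mark the GC box GGGCGG and the CCAAT box CCAAT on either strand.
Jmjd1c: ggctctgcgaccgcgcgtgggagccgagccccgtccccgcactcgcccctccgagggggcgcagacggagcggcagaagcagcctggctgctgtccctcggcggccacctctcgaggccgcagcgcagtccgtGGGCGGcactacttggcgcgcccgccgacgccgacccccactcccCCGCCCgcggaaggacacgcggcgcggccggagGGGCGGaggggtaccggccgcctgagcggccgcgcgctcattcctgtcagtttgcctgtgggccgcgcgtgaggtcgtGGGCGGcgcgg
Kdm3a: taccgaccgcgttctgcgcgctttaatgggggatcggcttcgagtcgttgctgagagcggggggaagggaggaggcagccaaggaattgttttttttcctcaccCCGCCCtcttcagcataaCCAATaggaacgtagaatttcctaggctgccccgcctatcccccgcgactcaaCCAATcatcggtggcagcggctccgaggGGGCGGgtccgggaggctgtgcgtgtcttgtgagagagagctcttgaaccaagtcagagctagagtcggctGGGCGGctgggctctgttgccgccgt
The Jmjd1c window holds 47 CpG dinucleotides, more than 98.6% of the 32817 promoters listed, whose median is 7, and the Kdm3a window holds 24. It has 4 GC boxes and 0 CCAAT boxes, and Kdm3a has 3 and 2. Of all promoters 35.6% hold a GC box and 37.4% a CCAAT box. TATAAA, found on either strand in 13.6% of all promoters, is in neither window. A match of letters is a description and not a site of binding.

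The order of the LSD1 pair was reversed between the groups. Kdm1a (LSD1, ENSMUSG00000036940, chromosome 4 from 136550540 to 136602723, minus strand), which demethylates mono- and dimethylated H3K4 within corepressor complexes, was at 44.8 and 55.6 TPM without DMSO and 29.1 and 21.1 TPM with it. Kdm1b (LSD2, ENSMUSG00000038080, chromosome 13 from 47043499 to 47085279, plus strand), which acts on the same mark, was at 25.1 and 19.7 TPM without DMSO and 59.0 and 38.0 TPM with it. Neither gene's groups overlapped, Kdm1a being lower and Kdm1b higher in both DMSO libraries. The log2 change was -0.98 for Kdm1a (standard error 0.30, 95% interval -1.69 to -0.27, limma adjusted p = 0.0588) and 1.06 for Kdm1b (standard error 0.32, 95% interval 0.28 to 1.83, limma adjusted p = 0.061), so that neither passed the threshold. The call of Kdm1b depended on the scaling. It passed after median-ratio scaling (1.16, limma adjusted p = 0.0474), quantile normalization (1.29, adjusted p = 0.0371) and the length and GC correction (1.09, adjusted p = 0.0434), and with a filter at a mean of 5 TPM (adjusted p = 0.0445). Kdm1a passed with that filter alone among these (adjusted p = 0.0431). Kdm1b did not pass with a pseudocount of 0.1 (limma adjusted p = 0.0696), without a trend (0.0769) or without a filter on low values (0.15). With each library left out the log2 change of Kdm1b ran from 0.74 (without DMSO replicate 1) to 1.37 (without DMSO replicate 2).

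The ratio of the pair within a library does not change with a scaling factor common to all its genes. Kdm1b was at 0.560 and 0.354 times the TPM of Kdm1a without DMSO and at 2.03 and 1.80 times with it. Kdm1a was thus the more abundant in both control libraries and Kdm1b in both DMSO libraries. The log2 ratio differed by 2.10 between the groups, a 4.29-fold difference, or 1.98 after the length and GC correction, and without any single library it lay between 1.77 and 2.43. An exact two-sided permutation test over the 4 libraries gave p = 0.333, which is the smallest value that this design allows. The sum of the pair was 70.0 and 75.3 TPM without DMSO and 88.1 and 59.1 TPM with it, and here the groups overlapped.

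Of the words of Kdm1b 8.56% are shared with genes of the table, mostly with Dek, a chromatin gene on the opposite strand whose exons cover 9.19% of its exonic bases. Dek was at 114 and 147 TPM without DMSO and 110 and 101 TPM with it, which is lower in both DMSO libraries. Of the words of Kdm1a 0.169% are shared. The promoters of the pair are shown because Kdm1a was lower and Kdm1b higher in both DMSO libraries. Each has 1 listed start, at chr4:136602674-136602973 on the minus strand for Kdm1a and chr13:47043249-47043548 on the plus strand for Kdm1b, and capitals mark the GC and CCAAT boxes.
Kdm1a: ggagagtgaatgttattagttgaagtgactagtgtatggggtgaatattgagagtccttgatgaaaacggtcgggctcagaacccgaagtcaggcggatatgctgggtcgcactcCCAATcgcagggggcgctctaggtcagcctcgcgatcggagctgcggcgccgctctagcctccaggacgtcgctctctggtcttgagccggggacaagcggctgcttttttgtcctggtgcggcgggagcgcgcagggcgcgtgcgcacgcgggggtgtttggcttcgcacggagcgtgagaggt
Kdm1b: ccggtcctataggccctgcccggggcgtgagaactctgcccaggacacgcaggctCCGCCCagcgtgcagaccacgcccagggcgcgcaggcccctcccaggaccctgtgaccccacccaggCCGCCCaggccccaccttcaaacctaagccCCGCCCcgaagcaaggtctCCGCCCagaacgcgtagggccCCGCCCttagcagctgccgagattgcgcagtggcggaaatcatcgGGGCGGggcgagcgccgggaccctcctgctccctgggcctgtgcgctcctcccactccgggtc
The windows are similar in CpG content, with 29 dinucleotides in Kdm1a and 26 in Kdm1b. The Kdm1a window has 0 GC boxes and 1 CCAAT box, and the Kdm1b window has 6 GC boxes and 0 CCAAT boxes. Neither holds TATAAA, nor the E box CACGTG, which is found in 7.15% of all promoters.

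**Figure D3:**
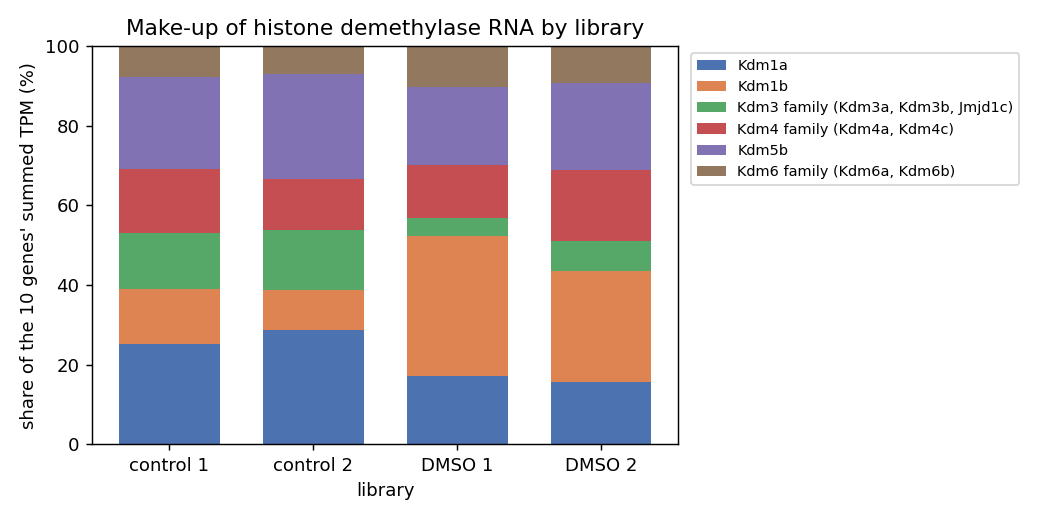
Share of the summed TPM of the 10 genes held by each gene or family (percent, stacked bars) in each library. Kdm1b holds 14.0% and 10.1% without DMSO and 35.0% and 28.0% with it, Kdm1a holds 25.1% and 28.6% against 17.2% and 15.6%, and the Kdm3 family is the smallest segment in the DMSO libraries.

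Kdm5b (ENSMUSG00000042207, chromosome 1 from 134560171 to 134635285, plus strand) removes methyl groups from trimethylated H3K4 and is active as broad H3K4 domains of the egg are taken down. It was at 41.0 and 51.3 TPM without DMSO and 32.8 and 29.7 TPM with it. The groups did not overlap, but the log2 change of -0.54 did not pass the threshold (95% interval -1.19 to 0.11, limma adjusted p = 0.183). The change was -0.30 after quantile normalization (limma adjusted p = 0.424). Kdm5b stayed the second most abundant member in both groups.

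The Kdm4 family acts on trimethylated H3K9 and H3K36. Kdm4a (ENSMUSG00000033326, chromosome 4 from 118136957 to 118180043, minus strand), which is known as a maternal factor of the egg, was at 10.3 and 7.72 TPM without DMSO and 6.28 and 4.74 TPM with it. It was lower in both DMSO libraries, with a log2 change of -0.62 that did not pass the threshold (95% interval -1.41 to 0.17, limma adjusted p = 0.203). Kdm4c (ENSMUSG00000028397, chromosome 4 from 74242497 to 74405860, plus strand) was at 18.5 and 17.3 TPM against 16.0 and 19.4 TPM. Its groups overlapped, and its log2 change of -0.02 had a 95% interval from -0.70 to 0.66 (limma adjusted p = 0.966), so that a change of either sign within that range is not excluded. Kdm4c was at 1.80 and 2.24 times Kdm4a without DMSO and at 2.55 and 4.10 times with it.

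The Kdm6 pair removes the repressive mark on H3K27. Kdm6a (UTX, ENSMUSG00000037369, chromosome X from 18162575 to 18279936, plus strand) was at 5.94 and 7.90 TPM without DMSO and 8.48 and 4.26 TPM with it. The DMSO libraries lay on both sides of the control libraries, and the log2 change was -0.15 (95% interval -1.10 to 0.79, limma adjusted p = 0.786). Kdm6b (JMJD3, ENSMUSG00000018476, chromosome 11 from 69398508 to 69413675, minus strand) was at 7.99 and 5.86 TPM against 8.84 and 8.25 TPM. Both DMSO libraries were above both control libraries, the nearest values lying closer together than the control libraries did, and the log2 change was 0.28 (95% interval -0.48 to 1.04, limma adjusted p = 0.527). It was 0.09 without control replicate 2, 0.48 without control replicate 1 and 0.50 with the length and GC correction. The words shared with other genes of the table came to 1.07% for Kdm6a, mostly with its Y-linked relative Uty, and to 0.274% for Kdm6b. Over all GENCODE genes the share of Kdm6b is 3.29%, mostly through Kdm6bos. That gene lies on the opposite strand, its exons cover 4.11% of the exonic bases of Kdm6b, and its part in the values was not tested.

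Ratios were computed for 6 pairs of related genes, and 4 did not overlap between the groups. Besides Kdm1b to Kdm1a these were Kdm3a to Kdm3b, Jmjd1c to Kdm3b and Kdm4c to Kdm4a, whose log2 ratios were higher in DMSO-treated embryos by 0.61, 0.39 and 0.69. Of single genes 69.8% had no overlap, but no such share was computed for ratios, and the ratios within the Kdm3 family share genes. The count of pairs is therefore a description and sets nothing apart. The ratios of Kdm3a to Jmjd1c and of Kdm6b to Kdm6a overlapped, with differences of 0.23 and 0.51. These relations depended on the processing in part. With a pseudocount of 1 TPM or the length and GC correction the groups overlapped for Jmjd1c to Kdm3b (differences of 0.19 and 0.20) and did not for Kdm3a to Jmjd1c (0.36 and 0.32), and with the correction they also overlapped for Kdm4c to Kdm4a (0.55). With each library left out the difference ran from 0.43 to 0.80 for Kdm3a to Kdm3b, from 0.16 (without DMSO replicate 1) to 0.61 (without DMSO replicate 2) for Jmjd1c to Kdm3b and from 0.35 (without DMSO replicate 2) to 1.03 (without DMSO replicate 1) for Kdm4c to Kdm4a. It ran from 0.02 (without control replicate 1) to 0.44 (without control replicate 2) for Kdm3a to Jmjd1c and from 0.06 (without DMSO replicate 2) to 0.96 (without DMSO replicate 1) for Kdm6b to Kdm6a. The exact two-sided permutation test on TPM as deposited gave p = 0.333 for the former 4 and p = 0.667 for the latter 2, and adjustment over the 6 pairs cannot bring any below 0.333.

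**Figure D4:**
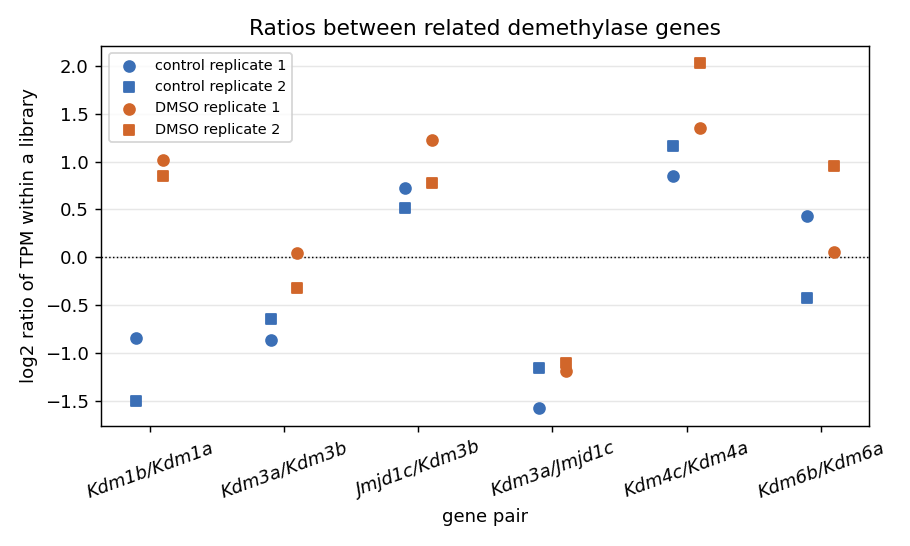
Log2 ratio of TPM between related demethylase genes in each library, with the dotted line at equal TPM. Blue points are control and orange points DMSO libraries. The Kdm1b/Kdm1a ratio lies at -0.84 and -1.50 without DMSO and at 1.02 and 0.85 with it, the only pair with the groups on opposite sides of the line.

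Among 23 further genes of the JmjC and demethylase families, 19 passed the filter, 2 were called lower and 0 higher, with a median log2 change of -0.34. At an unadjusted p-value under 0.05 there were 8, of which Phf2, higher with DMSO, had passed the filter only through its DMSO values. All genes tested had 14.1% called lower, 6.42% called higher and 40.2% at an unadjusted p-value under 0.05, with a median of -0.09, so that adjusted calls were no more frequent in this list and unadjusted ones lay near the share of all genes. The genes called were Riox1 and Riox2, ribosomal oxygenases that hydroxylate ribosomal proteins. Riox1 was at 40.8 and 45.5 TPM without DMSO and 5.31 and 14.1 TPM with it (log2 change -2.17, limma adjusted p = 0.0265), and Riox2 at 32.7 and 21.3 TPM against 7.81 and 6.38 TPM (log2 change -1.77, limma adjusted p = 0.0237). The call of Riox2 was lost without any single library (adjusted p from 0.0521 to 0.155), and that of Riox1 without each library but DMSO replicate 2 (adjusted p from 0.0879 to 0.172). None of the words of Riox1 are shared with genes of the table (31% over all GENCODE genes, mostly with Gm26571), and 23% of those of Riox2 are, mostly with Crybg3. The most abundant was Jmjd6, a lysyl hydroxylase linked to splicing, at 344 and 313 TPM against 233 and 238 TPM (log2 change -0.48, limma adjusted p = 0.178).

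Of 16 partners of Kdm1a in corepressor complexes, 13 passed the filter, 1 was called lower and 0 higher, with a median log2 change of -0.41 and 5 genes at an unadjusted p-value under 0.05. These calls too were no more frequent than among all genes tested (14.1% lower, 6.42% higher, 40.2% at an unadjusted p-value under 0.05). The gene called was Hdac1, a deacetylase of these complexes and the most abundant partner, at 183 and 169 TPM without DMSO and 96.6 and 80.2 TPM with it (log2 change -0.99, limma adjusted p = 0.0402). Its call was lost after quantile normalization (adjusted p = 0.0807) and without any single library (adjusted p from 0.0912 to 0.215), and 38.9% of its words are shared with genes of the table, mostly with Gm10093. Hdac2, another deacetylase of these complexes, was at 17.1 ± 5.34 TPM against 28.3 ± 2.49 TPM (SD, n = 2) and higher in both DMSO libraries, with a log2 change of 0.72 that did not pass the threshold (limma adjusted p = 0.141).

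Of 19 methyltransferases that write the marks removed by the members, 17 passed the filter, 2 were called lower and 0 higher, with a median log2 change of -0.26 and 4 genes at an unadjusted p-value under 0.05. All 3 counts were below the shares of all genes tested, which were 14.1%, 6.42% and 40.2%. The called genes were the H3K9 methyltransferase Ehmt1, at 46.1 and 67.8 TPM against 22.9 and 27.1 TPM (log2 change -1.13, limma adjusted p = 0.0449), and the H3K36 methyltransferase Setd2, at 96.3 and 75.7 TPM against 34.5 and 28.3 TPM (log2 change -1.42, limma adjusted p = 0.0249). The call of Ehmt1 was lost after median-ratio scaling (adjusted p = 0.0697), quantile normalization (0.0846) and the length and GC correction (0.0676), and that of Setd2 held in these 3 fits. Both were lost without any single library, with adjusted p-values from 0.0686 to 0.286 for Ehmt1 and from 0.0517 to 0.16 for Setd2. The most abundant by group mean was the H3K4 methyltransferase Kmt2c, at 119 and 79.8 TPM against 159 and 90.0 TPM (log2 change 0.30, limma adjusted p = 0.564). In control replicate 2 Setdb2 was higher, at 85.1 TPM. Of the methyltransferases of H3K4 and H3K27, 4 and 2 were tested and 0 were called, with 0 at an unadjusted p-value under 0.05 as well. Of those of H3K9 and H3K36, 6 and 5 were tested, 1 of each was called, and 3 and 1 had an unadjusted p-value under 0.05, the 3 being Ehmt1 and Ehmt2 (log2 change -1.25, limma adjusted p = 0.0525), lower in both DMSO libraries, and Suv39h2 (0.84, limma adjusted p = 0.0835), higher in both.

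Markers of the stage were checked against the labels. Of 10 genes of the 2-cell stage 9 were found and tested and 5 were called higher, where 6.42% of all genes tested were, and their summed level was 988 and 730 TPM without DMSO and 2900 and 2010 TPM with it, Tcstv3 being the most abundant. Several belong to families of near-identical copies, between which reads are split by estimate, so that single values are uncertain. Of 12 oocyte genes 11 were tested and 2, Bmp15 and Oosp1, were called higher (6.42% of all genes), and the sum of the list was 1200 and 785 TPM against 3040 and 2330 TPM, mostly Oosp1. At an unadjusted p-value under 0.05 in limma there were 7 oocyte genes, where 40.2% of all genes tested were. Their list had a median log2 change of 0.95, beside -0.09 over all genes. Of the 11 tested, 8 had a positive log2 change and 3 a negative one, with Zp3 at 1.56 and 2.35 TPM against 1.44 and 0.956 TPM, Mos at 5.14 and 5.51 TPM against 3.83 and 2.94 TPM, and Padi6 at -0.80. Nlrp5 was listed at 0 in control replicate 1 and DMSO replicate 1, and Padi6 in DMSO replicate 1. Both sums were higher in the DMSO libraries, as Kdm1b was, and their part in its values was not tested. The 12 markers of cumulus or granulosa cells summed to 3.55 and 2.62 TPM against 4.91 and 4.10 TPM, with Inhba and Amh at 0 in all libraries. Cyp11a1 had the highest mean with DMSO (1.53 TPM) and Tnfaip6 without it (0.871 TPM), and their order differed between libraries. The 6 sperm markers summed to 2.96 and 3.38 TPM against 13.5 and 8.69 TPM, mostly Prm2. Of these 2 passed the filter, Prm2 and Tnp1, and both were called higher (6.42% of all genes), Tnp1 having passed only through its DMSO values, while Tnp2 was at 0 in all libraries.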

How the data were processed

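RNA of 2-cell embryos was amplified with the SMARTer Ultra Low Input RNA Kit and sequenced with Illumina chemistry. The authors quantified transcripts by kallisto against Ensembl transcripts of GRCm38 (mm10), summed them per gene with tximport, and deposited TPM values. The kallisto version is not given in the sources used here, and the methods name no use of strand. The kit primes cDNA at poly(A) tails, so that the values are of polyadenylated RNA. The 4 columns of the table are the 4 libraries, and groups and replicate numbers were taken from the sample titles.

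Symbols, coordinates and transcripts came from GENCODE M21 (GRCm38), which named 29589 of the 30049 genes. limma 3.58.1 (R 4.3.3) was applied to log2(TPM + 1) of the genes that averaged 1 TPM or more, with lmFit, then eBayes with trended variance, and adjustment by Benjamini-Hochberg to a threshold of 0.05. No replicate block entered this model. The authors' own test was a count test, for which TPM is unsuited. Shared sequence was measured as the percentage of 31-base words of a gene that transcripts of another gene hold on any strand, counting the genes of the table (which lists 35 of the 5854 lincRNAs of GENCODE) unless stated. Promoters of 8 of the 10 members were read from RefSeq (GRCm38.p6), and those of Kdm3b and Kdm6b were not used here. The steps were tested on simulated data. Python 3.11.15, pandas 2.3.3, numpy 2.4.6 and matplotlib 3.10.9 were used for the rest.

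All members are named, with the called genes and the most abundant gene of each other list apart from the markers. Phf2, Hdac2, Setdb2, Ehmt2, Suv39h2 and some of the markers were named outside this rule. Members and lists were chosen with earlier results of these data known. The alternatives were a pseudocount of 0.1, no filter, a filter at 5 TPM, no trend, quantile normalization, median-ratio scaling, the replicate number as a block, a correction for transcript length and GC content (alone and with the block; 138 tested genes had no length and were left as they were), and leaving out each library.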

Additional observations from a re-analysis of the deposited data

How the results depend on the processing

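The design of 2 libraries against 2 leaves 2 residual degrees of freedom, TPM gives no depth, and no counting error could be derived. Without a filter on low values limma called 0 genes in all, lower or higher, and 0 genes of every list, while 5 members had an unadjusted p-value under 0.05. With a library left out, the lone one of its group was assumed to vary like the other group. The number of genes called then ranged from 0 to 1883 (lower 0 to 1276, higher 0 to 607), members called lower from 0 to 1 (Kdm3b, without DMSO replicate 2) and higher 0 in each case, other JmjC genes called lower from 0 to 1, LSD1 partners called lower from 0 to 1, and methyltransferases called lower 0 in each case.

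Both groups use replicate numbers 1 and 2, and libraries with the same number deviated together from the means of their groups (r = 0.35 over genes, which are not independent), but nothing states that a number marks a shared batch. With the replicate block 5132 genes were called, 2981 lower and 2151 higher. Of the members 4 were called lower (Kdm1a, Kdm3a, Kdm3b, Jmjd1c) and 1 higher (Kdm1b), with 24.8% and 17.9% of all genes called in these directions. Of the other JmjC genes 7 were called lower, of the LSD1 partners 5 lower and 2 higher, and of the methyltransferases 3 lower and 2 higher. With the replicate block and the length and GC correction the counts were 5203 genes (2670 lower, 2533 higher), 4 members lower and 1 higher, 5 other JmjC genes lower and 1 higher, 4 LSD1 partners lower and 2 higher, and 3 methyltransferases lower and 1 higher. By pairs of replicates, the log2 ratio of Kdm6b to Kdm6a differed by -0.37 for replicates 1 and by 1.39 for replicates 2.

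Quantile normalization gave 1121 genes lower and 1076 higher (9.31% and 8.94% of all genes), 2 members lower and 1 higher (Kdm1b), 2 other JmjC genes lower, 0 LSD1 partners lower, and 1 methyltransferase lower and 1 higher. Median-ratio scaling (10.5% of all genes lower, 7.88% higher) gave 2 members lower and 1 higher, 2 other JmjC genes, 1 LSD1 partner and 1 methyltransferase lower. The length and GC correction (11.3% lower, 9.44% higher) gave 2 members lower and 1 higher, 2 other JmjC genes lower, 2 LSD1 partners lower and 1 higher, and 1 methyltransferase lower. The filter at 5 TPM, which leaves out Kdm3a and called 22.5% of 7470 genes lower and 10.3% higher, gave 3 members lower and 1 higher, and 3 other JmjC genes, 3 LSD1 partners and 3 methyltransferases lower. Without a trend 0 LSD1 partners and 1 methyltransferase were called lower, and with a pseudocount of 0.1 1 methyltransferase was. The cause of these shifts was not tested. Kdm4c, near 0 throughout, turned to 0.08 under median-ratio scaling, 0.15 under quantile normalization, 0.03 under the length and GC correction with or without the block, and 0.03 without control replicate 1, and ranged from -0.15 to 0.11 with each library left out. Kdm6a turned to 0.02 without control replicate 2 and ranged from -0.58 to 0.27. The direction of the other 8 members was the same under every alternative that gave a value, Kdm3a having none with the filter at 5 TPM.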
